A study of Mus musculus with 3 samples.

Results

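The heavy chain variable segments (Ighv) of splenic B cells were examined in mice with OVA-induced allergic rhinitis. The members were every row of the gene table whose name starts with Ighv and whose counts in the PBS and SJMHE1 libraries summed to at least 20. This gave 110 of the 129 Ighv rows and of the 27088 rows in all. By annotation 95 of them were functional segments and 15 were pseudogenes. The member nearest to the minimum was Ighv3-3, with 6 counts in PBS and 15 in SJMHE1, and the row nearest below it was Ighv1-13, with 12 and 4 counts.

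Both groups were female BALB/c mice aged 6 weeks at the start and 13 weeks by the label. Sensitization was by intraperitoneal injection of 10 μg OVA in 2 mg aluminium hydroxide (days 0, 7 and 14), and 100 μg OVA was then given into the nose from day 21 to day 27 and again from day 29 to day 35. The PBS group was injected subcutaneously with PBS, and the SJMHE1 group with 10 μg of SJMHE1, a peptide of the worm Schistosoma japonicum, on days 0, 14 and 28. The peptide was emulsified in incomplete Freund's adjuvant and the PBS was not, so peptide and adjuvant cannot be told apart. B cells were sorted from the spleen on day 36 and the samples of 3 mice in each group were mixed, which left 1 library per group and no spread between animals. No test across replicates was therefore possible. Intervals in brackets are at the 95% level, exact except for the effective number of segments, and cover counting error only. A ratio whose interval leaves out 0 on the log2 scale describes these 2 libraries, not the treatments.

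Each B cell builds its heavy chain gene by joining 1 variable (V), 1 diversity (D) and 1 joining (J) segment, and the V segment encodes most of the antigen-binding domain, including its first and second complementarity-determining regions. The V segments are grouped in families by sequence, each with a leader exon and a V exon. In the mouse they lie in a long array on chromosome 12, transcribed towards the D, J and constant segments. Transcripts of Ighv rows in mature B cells come mainly from rearranged alleles, so the share of reads on a segment describes which segments the sorted cells used and how much RNA they made from them. In bulk RNA, fewer cells of a kind and less RNA per cell cannot be told apart.

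All 129 rows had the identifier, position and strand of GENCODE M21 on GRCm38 (mm10), where 185 Ighv genes are annotated. The members lay on the minus strand of chr12:113572927-116010093, and 109 of 110 had 2 exons, with transcripts of 303 to 480 bases. This assembly is that of C57BL/6J mice, and BALB/c mice carry another haplotype of the locus. The part of this difference in the values of single segments was not tested. Near relatives within a family share sequence. Of all 50-base windows of a member's transcripts, a median of 22.2% also occurred in another Ighv gene, with a range of 0 to 97.4%, and 14 members shared more than 50%. How reads with several matches were counted is not given in the sources used here, so values of close relatives are uncertain.

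The following sequences show how alike the segments were between which reads had to be divided. Each is the 150 bases of the V exon that end with the codon of the second conserved cysteine, from the GENCODE transcripts on GRCm38. In the 4 pairs, capitals mark the bases at which the partners differ. The first pair was chosen because its members went in opposite directions, with 10 differing bases, and the other pairs because both members went in the same direction, with 9, 2 and 4 differing bases. These choices were made after the values were seen.
Ighv2-9, chr12:113879104-113879253, minus strand: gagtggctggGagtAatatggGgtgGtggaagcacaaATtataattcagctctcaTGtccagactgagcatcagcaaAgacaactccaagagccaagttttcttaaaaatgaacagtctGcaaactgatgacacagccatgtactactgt
Ighv2-6, chr12:113716678-113716827, minus strand: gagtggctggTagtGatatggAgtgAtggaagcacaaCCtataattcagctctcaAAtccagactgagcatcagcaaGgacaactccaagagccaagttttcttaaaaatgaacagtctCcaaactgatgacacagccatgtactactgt
Ighv3-6, chr12:114288160-114288309, minus strand: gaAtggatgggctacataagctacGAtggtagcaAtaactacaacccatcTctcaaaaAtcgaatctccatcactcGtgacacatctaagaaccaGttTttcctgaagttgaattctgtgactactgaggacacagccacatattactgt
Ighv3-1, chr12:113964396-113964545, minus strand: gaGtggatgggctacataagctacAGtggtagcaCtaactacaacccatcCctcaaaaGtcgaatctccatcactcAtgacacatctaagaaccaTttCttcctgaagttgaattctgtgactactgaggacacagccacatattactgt
Ighv1-15, chr12:114657359-114657508, minus strand: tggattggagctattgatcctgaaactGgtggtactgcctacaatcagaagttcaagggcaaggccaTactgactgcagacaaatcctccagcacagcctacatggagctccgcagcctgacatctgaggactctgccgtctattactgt
Ighv1-23, chr12:114764456-114764605, minus strand: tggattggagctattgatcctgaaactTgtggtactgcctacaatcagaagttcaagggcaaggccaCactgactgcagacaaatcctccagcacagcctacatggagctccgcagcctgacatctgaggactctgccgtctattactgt
Ighv2-2, chr12:113588275-113588424, minus strand: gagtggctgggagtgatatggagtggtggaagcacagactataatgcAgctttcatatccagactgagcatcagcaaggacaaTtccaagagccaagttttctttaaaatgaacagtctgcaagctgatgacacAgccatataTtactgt
Ighv2-4, chr12:113653299-113653448, minus strand: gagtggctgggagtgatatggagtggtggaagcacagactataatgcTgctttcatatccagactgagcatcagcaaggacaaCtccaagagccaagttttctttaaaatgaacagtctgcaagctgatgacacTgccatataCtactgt
Ighv1-39 is shown because it had no count in the PBS library, and here the capitals mark the cysteine codon.
Ighv1-39, chr12:114914605-114914754, minus strand: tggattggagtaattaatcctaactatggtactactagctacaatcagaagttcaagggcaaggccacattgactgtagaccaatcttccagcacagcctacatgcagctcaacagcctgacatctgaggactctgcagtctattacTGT

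The library sums were 48267168 counts for PBS and 51280237 for SJMHE1. B cell identity was high in both libraries, with Cd79a at 835 and 835 FPKM and Cd79b at 625 and 594 FPKM, and 0 of 10 B cell markers differed more than 2-fold. Other cells differed between the libraries. All 7 T cell markers were more than 2-fold lower in SJMHE1, with a summed level of 24.0 FPKM in PBS and 5.95 in SJMHE1, and 2 of 2 compared NK cell markers were lower. The neutrophil list summed to 278 and 390 FPKM, with 0 of 5 genes past 2-fold, and the erythroid list to 147 and 193 FPKM, with 0 of 6. The macrophage list summed to 26.1 and 20.8 FPKM, with 1 of 6 compared genes past 2-fold. This was C1qb, which was higher, at 1.22 and 2.45 FPKM. C1qa, Vcam1 and Itgad were also higher, and Adgre1, Csf1r and Cd68 were lower, all by less than 2-fold. Of all genes compared, 2.43% were more than 2-fold higher and 3.57% lower. No marker of these lists was at 0 in both libraries. The part of these cells in the Ighv values was not tested.

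The Ighv segments together were slightly more abundant in SJMHE1. They held 66305 counts in PBS and 76432 in SJMHE1, which was 1374 and 1490 CPM (counts scaled to a library sum of 1000000), or 0.137% (0.136 to 0.138) and 0.149% (0.148 to 0.150) of the libraries. The log2 ratio of CPM, SJMHE1 to PBS, was 0.12 (0.10 to 0.13), a 1.09-fold difference. Summed per length, the members reached 3296 FPKM in PBS and 3586 FPKM in SJMHE1. The variable segments of the kappa light chain (Igkv) summed to 3771 and 3774 CPM.

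In both libraries a few segments held a large part of the counts. The 10 largest held 41.7% of Ighv counts in PBS and 38.2% in SJMHE1, and 7 segments were among the 10 largest in both. 50% of the counts lay on 14 segments in PBS and on 15 in SJMHE1, while 28 and 26 segments held under 0.1% each. The effective number of segments, the number of equally used segments that would give the same Shannon entropy, was 52.8 (52.4 to 53.2) in PBS and 55.1 (54.7 to 55.5) in SJMHE1. The intervals did not overlap, but without Ighv2-9 the numbers were 56.6 (56.2 to 57.0) and 56.8 (56.5 to 57.2), and these intervals overlapped. Segments with at least 1% of the counts numbered 31 in PBS and 29 in SJMHE1.

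**Figure D1:**
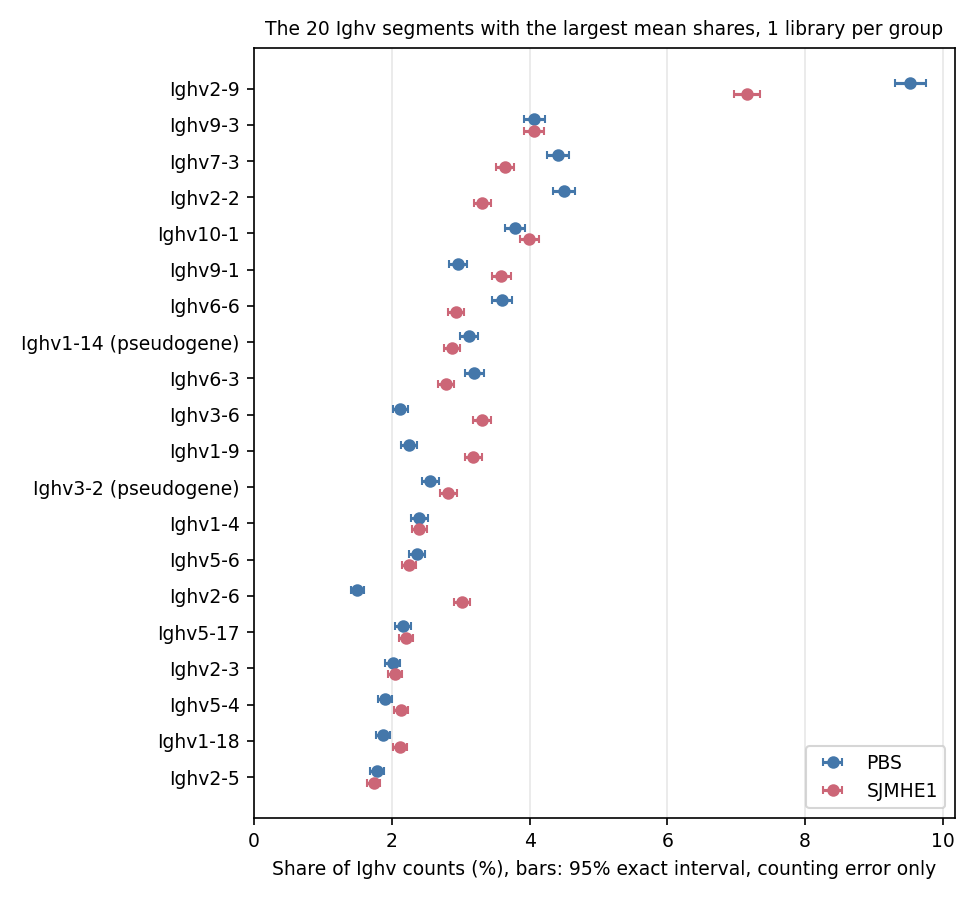
Share of Ighv counts, in percent, of the 20 segments with the largest mean share, in the PBS and SJMHE1 libraries. Points are the shares and bars the exact 95% intervals for counting error. Ighv2-9 stood apart from the rest in both libraries, at 9.53% and 7.16%, and Ighv2-6 and Ighv3-6 lay further right in SJMHE1.

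Ighv2-9, a segment of the Q52 family, led both libraries. It had 6319 counts and 318 FPKM in PBS and 5470 counts and 260 FPKM in SJMHE1. Its share of Ighv counts was 9.53% (9.31 to 9.76) in PBS and 7.16% (6.97 to 7.34) in SJMHE1, so it lost 2.37 percentage points, the largest difference of any member. No other segment reached 5% in either library. Ighv2-2, of the same family and near the D end, held 2983 counts in PBS and 2534 in SJMHE1, a share of 4.50% and 3.32%. Ighv7-3, of the S107 family, held 2926 and 2783 counts, a share of 4.41% and 3.64%. Both had smaller shares in SJMHE1, and their intervals did not overlap. Ighv6-6 was at 122 FPKM in PBS and 108 in SJMHE1 and Ighv6-3 at 108 and 103 FPKM, and both had smaller shares in SJMHE1, 3.60% against 2.93% and 3.20% against 2.78%.

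The other leading segments went different ways in share. Ighv9-3 held 2695 counts in PBS and 3104 in SJMHE1, which was 4.06% of Ighv counts in each. Ighv10-1 held 2509 and 3053 counts, or 3.78% and 3.99%, with a log2 share ratio of 0.08 (0.00 to 0.15). Ighv9-1 was higher, with 1966 counts in PBS and 2746 in SJMHE1 and shares of 2.97% and 3.59%. Ighv3-6 was the leading segment with the largest gain, from 1408 counts and 2.12% in PBS to 2528 counts and 3.31% in SJMHE1. Of these 10 segments with the largest mean shares of counts, 9 were also among the 10 highest by FPKM. The remaining one of the 10, Ighv1-14, is annotated as a pseudogene and had 2067 counts in PBS and 2197 in SJMHE1. Its share was smaller in SJMHE1, at 3.12% against 2.87%, with a log2 share ratio of -0.12 (-0.20 to -0.03).

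Single segments were then compared by the log2 ratio of FPKM, SJMHE1 to PBS, with a log2 ratio beyond 1 counted as higher or lower. A gene was compared where it had at least 1 FPKM in 1 library and was above 0 in both, which held for 104 of 110 members. The median log2 FPKM ratio was 0.13 over these members and -0.01 over all 12433 genes compared. Of the 104 members, 10 were higher, which was 9.62% against 2.43% of all genes, and 4 were lower, which was 3.85% against 3.57%. Most of these segments had few counts. Among the 26 compared members with under 200 summed counts, 8 were higher, 30.8% against 12.9% of all genes with 20 to under 200 counts, and 2 were lower, 7.69% against 17.6%. Among the 78 members with at least 200 counts, 2 were higher, 2.56% against 1.07% of all such genes, and 2 were lower, 2.56% against 1.79%. The interval of the ratio lay wholly beyond the 2-fold threshold for 5 of the 14 segments, Ighv2-6, Ighv1-47, Ighv1-11, Ighv3-4 and Ighv6-7. The median absolute log2 share ratio was 0.30 over the 38 members with 200 to under 1000 counts and 0.22 over the 40 with at least 1000. Among the 32 members with under 200 counts it was 0.72. This median leaves out the 3 members with 0 counts in 1 library, which have no ratio.

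**Figure D2:**
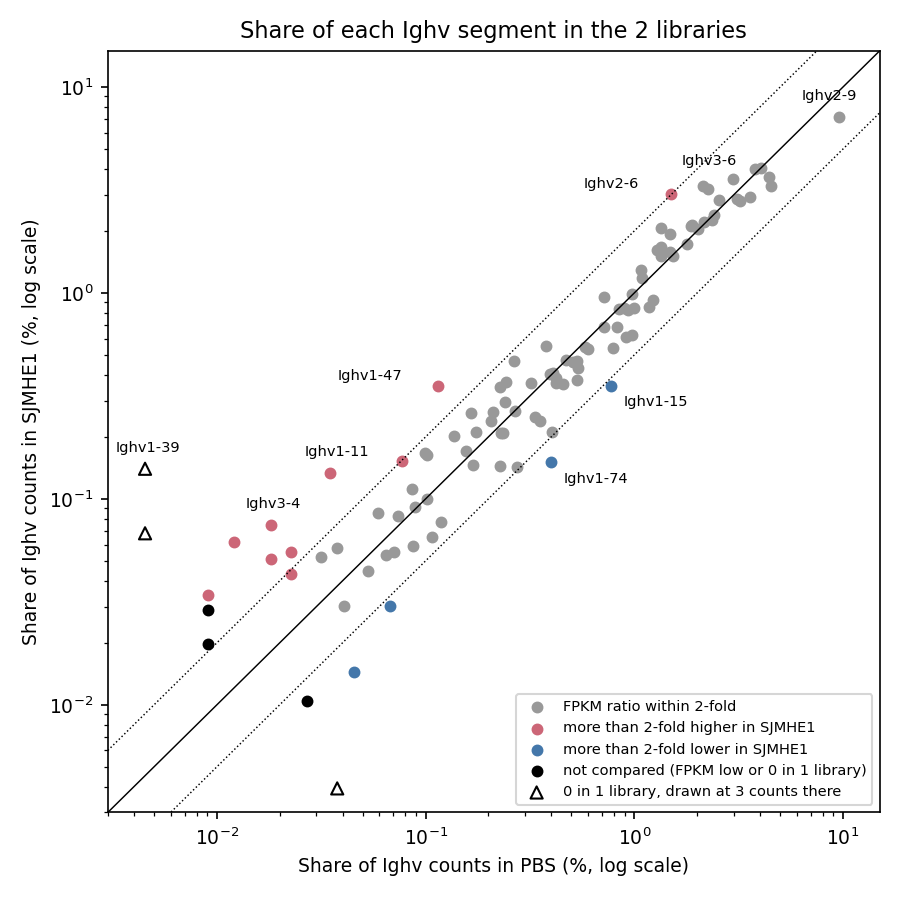
Share of Ighv counts of each of the 110 segments in PBS (horizontal, percent, log scale) and in SJMHE1 (vertical, percent, log scale). The solid line marks equal shares and the dotted lines a 2-fold difference in share. Colours give the ratio of FPKM, and the 3 open triangles are segments with 0 counts in 1 library, drawn there at 3 counts. The points scatter widely below 0.1% and lie close to the line above 1%, with Ighv2-6 as the exception.

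Among the 40 members with at least 1000 counts, Ighv2-6 was the only one past 2-fold. It had 993 counts and 51.7 FPKM in PBS and 2306 counts and 113 FPKM in SJMHE1, a log2 FPKM ratio of 1.13 (95% interval of the CPM ratio, 1.02 to 1.24). Its share went from 1.50% (1.41 to 1.59) to 3.02% (2.90 to 3.14), which moved it from rank 21 to rank 9. Of the 50-base windows of Ighv2-6, 25.6% occurred in another Ighv gene. Its relative Ighv2-9 lost share, as given above, although the pair had 94% identity over the 250 bases before the cysteine codon. The segment most similar to Ighv2-6 was Ighv2-6-8, at 95.6%, which was also 97.2% identical to Ighv2-9. Ighv2-6-8 had 269 counts in PBS and 313 in SJMHE1, and its share was 0.41% in both. Ighv1-47, a segment of the large J558 family, had 76 counts and 3.44 FPKM in PBS and 270 counts and 11.7 FPKM in SJMHE1, a log2 FPKM ratio of 1.76 (95% interval of the CPM ratio, 1.37 to 2.13). No 50-base window of Ighv1-47 occurred in another Ighv gene.

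The 8 further segments past 2-fold on the higher side were small. Ighv1-11 had 23 counts in PBS and 102 in SJMHE1, a log2 FPKM ratio of 2.10 (95% interval of the CPM ratio, 1.40 to 2.78). Ighv3-4 had 12 counts in PBS and 57 in SJMHE1, with a ratio of 2.26 (1.25 to 3.20), and Ighv6-7 had 8 and 47 counts, with a ratio of 2.49 (1.37 to 3.76). These 3 segments shared no window with another Ighv gene. Ighv1-42, Ighv1-43, Ighv3-1, Ighv8-9 and Ighv8-13 had between 6 and 51 counts in PBS and between 26 and 117 in SJMHE1, and the lower bound of each of their ratios was under the threshold.

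On the lower side, Ighv1-74 had 264 counts and 13.7 FPKM in PBS and 115 counts and 5.60 FPKM in SJMHE1. Its log2 FPKM ratio was -1.29 (95% interval of the CPM ratio, -1.62 to -0.97). Ighv1-15 had 514 counts and 26.7 FPKM in PBS and 271 counts and 13.3 FPKM in SJMHE1, a ratio of -1.01 (-1.23 to -0.80), and it stood at the threshold. Its closest relative Ighv1-23, which differed by 2 of the 150 bases shown above, was also lower, with 79 and 59 counts. Ighv1-72, the segment known as VH186.2 for its use in C57BL/6 antibodies to the hapten NP, had 45 counts in PBS and 23 in SJMHE1, but 92.5% of its windows occurred in another Ighv gene. The pseudogene Ighv1-30 had 30 and 11 counts. Other well-counted segments that were lower without passing 2-fold were Ighv1-20, with 266 and 161 counts, Ighv1-78, with 182 and 109, Ighv8-2, with 151 and 110, and Ighv1-67, with 643 and 479.

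3 members had 0 counts in 1 library, where a count of 0 allows up to 3 counts. The folds below set the CPM of the other library against these 3 counts, and the limit nearest to 0 of the exact interval of the ratio, which also covers counting error in the other library, is given beside them. Ighv1-39 had 0 counts in PBS and was at 2.09 CPM and 5.21 FPKM in SJMHE1. This was 33.6-fold higher in CPM against 3 counts, with a lower limit of 4.75 on the log2 scale. Ighv1-75 had 0 and 52 counts, 16.3-fold higher against 3 counts, with a lower limit of 3.68. Ighv8-6 had 25 counts in PBS and 0 in SJMHE1, 8.85-fold lower against 3 counts, with an upper limit of -2.74. Ighv1-39 shared 7.28% of its windows with another Ighv gene, Ighv1-75 42.9% and Ighv8-6 25.2%. The other 3 members not compared, Ighv3-3, Ighv1-70 and Ighv1-77, stayed under 1 FPKM in both libraries.

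Taking the segments as a whole, 10.1% of Ighv counts lay on different segments in the 2 libraries, computed as the sum of the absolute differences in share divided by 2. Counting error alone would give 1.79% on average at these depths. 57 members had a larger share in SJMHE1 and 53 a smaller one. The interval of the log2 share ratio lay above 0 for 36 members, below 0 for 30 and included 0 for 44. The gains were led by Ighv2-6, Ighv3-6 and Ighv1-9, which made up 35.8% of the points gained. Ighv1-9 had 1493 counts in PBS and 2430 in SJMHE1. The losses were led by Ighv2-9, Ighv2-2 and Ighv7-3, which made up 42.7% of the points lost. The order of the segments was similar in both libraries, with a Spearman correlation of 0.97 and a Pearson correlation of 0.96 between the shares over the 110 members, which share the annotation and the reads of close relatives. The same measure over 110 kappa variable segments was 12.2%, against 1.11% from counting error.

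The families of segments differed in share by up to 2.33 percentage points. The Ighv1 (J558) family, with 55 members, held the most counts, 26.7% in PBS and 26.1% in SJMHE1. The Ighv2 (Q52) family, with 7 members, held 20.1% (19.8 to 20.4) and 17.9% (17.7 to 18.2), and without Ighv2-9 its other members held 10.5% and 10.8% of Ighv counts. Over families instead of segments, 4.91% of the counts lay on a different family. The Ighv5 family, which includes the members nearest to the D segments, held 10.9% and 11.0%.

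**Figure D3:**
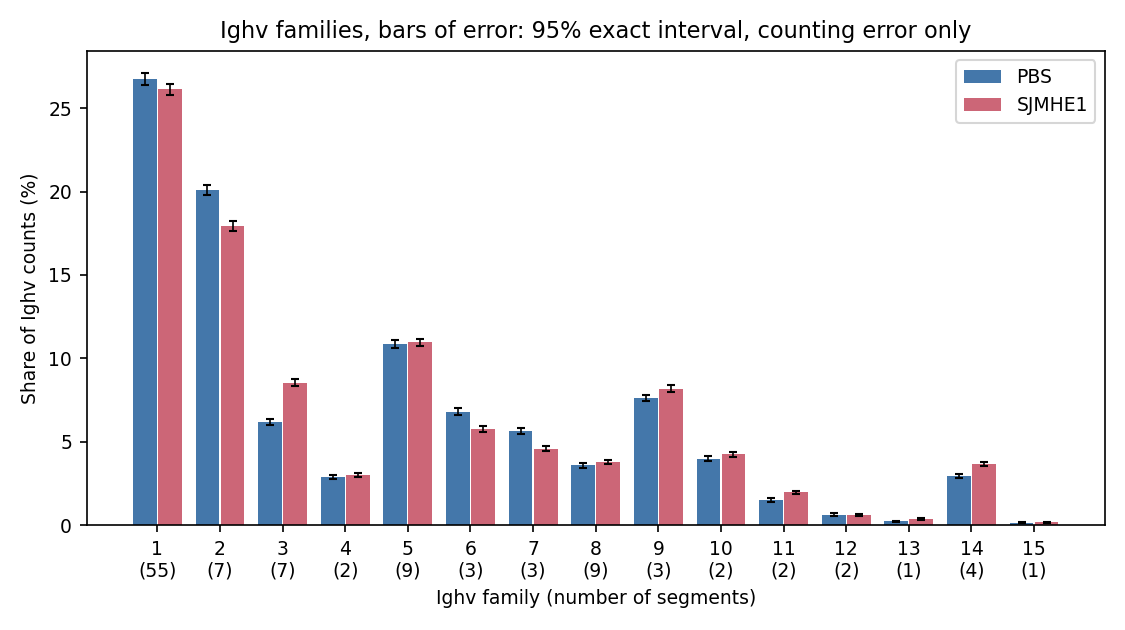
Share of Ighv counts, in percent, held by each of the 15 Ighv families in PBS and SJMHE1, with the number of segments of each family in brackets. Bars start at 0 and error bars are exact 95% intervals for counting error. The Ighv3 bar was taller in SJMHE1, at 8.54% against 6.21%, and the Ighv2, Ighv6 and Ighv7 bars were shorter.

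The Ighv3 family had the largest gain. It held 4118 counts and 6.21% (6.03 to 6.40) of Ighv counts in PBS and 6527 counts and 8.54% (8.34 to 8.74) in SJMHE1, a log2 share ratio of 0.46 (0.40 to 0.52). All 7 of its members had a larger share in SJMHE1, and 2 of the 6 compared were more than 2-fold higher by FPKM. These 2 were small, Ighv3-1 with 15 and 33 counts and Ighv3-4 with 12 and 57. Of all genes with 20 to under 200 counts, 12.9% were higher. Ighv3-6 was at 73.3 FPKM in PBS and 124 FPKM in SJMHE1, a log2 FPKM ratio of 0.76 (95% interval of the CPM ratio, 0.66 to 0.85). Ighv3-8 was at 41.1 and 69.0 FPKM, with a ratio of 0.75 (0.62 to 0.86). Of their 50-base windows, 2.91% and 0.29% occurred in another Ighv gene. Ighv3-5 had 91 counts in PBS and 155 in SJMHE1. The pseudogene Ighv3-2 had 1696 and 2158 counts, a smaller difference, and the 6 functional members alone held 3.65% and 5.72%.

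4 other families were higher by more than counting error with every member higher in share. The Ighv14 family held 2.95% in PBS and 3.68% in SJMHE1, with a log2 share ratio of 0.32 (0.23 to 0.40) and 4 of 4 members higher. Within it, Ighv14-3 had 891 and 1273 counts and Ighv14-4 had 175 and 359 counts, and the log2 FPKM ratio of Ighv14-4 was 0.96, just inside the threshold. The Ighv11 family held 1.52% and 1.98%, with a log2 share ratio of 0.39 (0.27 to 0.50) and 2 of 2 members higher. Ighv13-2, the single member of its family, had 161 and 281 counts and a ratio of 0.60 (0.31 to 0.89). Ighv10 had a ratio of 0.09 (0.02 to 0.17), also with 2 of 2 members higher. The Ighv9 family was higher too, at 7.63% and 8.19% with a ratio of 0.10 (0.05 to 0.16), but only 1 of its 3 members gained share.

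Besides Ighv2, the Ighv6 and Ighv7 families were lower in SJMHE1, and Ighv1 had a log2 share ratio of -0.03 (-0.063 to -0.0045). The Ighv7 (S107) family held 5.68% (5.50 to 5.86) in PBS and 4.59% (4.45 to 4.75) in SJMHE1, with a log2 share ratio of -0.31 (-0.37 to -0.24) and 3 of 3 members lower. Ighv7-1, known from antibodies to phosphorylcholine, had 811 counts in PBS and 706 in SJMHE1 and a share of 1.22% and 0.92%. The Ighv6 (J606) family held 6.81% and 5.78%, with a ratio of -0.24 (-0.30 to -0.18). Its small member Ighv6-7 was higher, as given above, while its other members were lower in share.

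Segments with known antigens of innate-like B cells were compared next. Ighv11-2 and Ighv12-3 are used by B-1 cells that bind phosphatidylcholine, a lipid of cell membranes. Ighv11-2 had 980 counts and 38.7 FPKM in PBS and 1471 counts and 54.9 FPKM in SJMHE1, a log2 FPKM ratio of 0.50 (95% interval of the CPM ratio, 0.38 to 0.62). Ighv12-3 had 383 and 419 counts and 19.7 and 20.4 FPKM, a ratio of 0.05 (-0.16 to 0.25). The pair thus did not differ alike. Among all genes with at least 200 counts, 1.79% were more than 2-fold lower and 1.07% higher. Of 6 genes listed as B-1 cell markers, 2 were more than 2-fold lower in SJMHE1 and 0 were higher. Their summed level was 40.6 FPKM in PBS and 27.5 in SJMHE1. The 2 were Cd5, at 1.94 and 0.74 FPKM, and Ctla4, at 4.11 and 1.48 FPKM, which T cells also express. Zbtb32, at 12.2 and 6.88 FPKM, and Bhlhe41, at 6.84 and 3.96 FPKM, were lower without passing 2-fold. Plscr1 and Spn had log2 FPKM ratios of -0.17 and -0.03. The part of T cells in these values was not tested.

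Position along the locus was examined because segments near the D segments rearrange with less contraction of the locus than distal ones. Ordered by coordinate and split at the middle, the 55 D-proximal members lay in chr12:113572927-114647056 and the 55 distal members in chr12:114657353-116010093. The proximal members held 80.4% (80.1 to 80.7) of Ighv counts in PBS and 81.7% (81.4 to 82.0) in SJMHE1, a log2 share ratio of 0.02 (0.01 to 0.04). The distal members held 19.6% and 18.3%, a ratio of -0.10 (-0.13 to -0.06). The median summed count of a member was 1399 on the proximal side and 310 on the distal side. Past 2-fold, 5 of 54 compared proximal members were higher and 0 lower, and 5 of 50 compared distal members were higher and 4 lower. Over all genes compared, 2.43% were higher and 3.57% lower. Among genes with 20 to under 200 counts these shares were 12.9% and 17.6%, so the lower counts of the distal side limit this comparison. Spearman's correlation of the log2 share ratio with the order along the locus was -0.09 over the members with counts in both libraries, which share reads with relatives nearby.

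**Figure D4:**
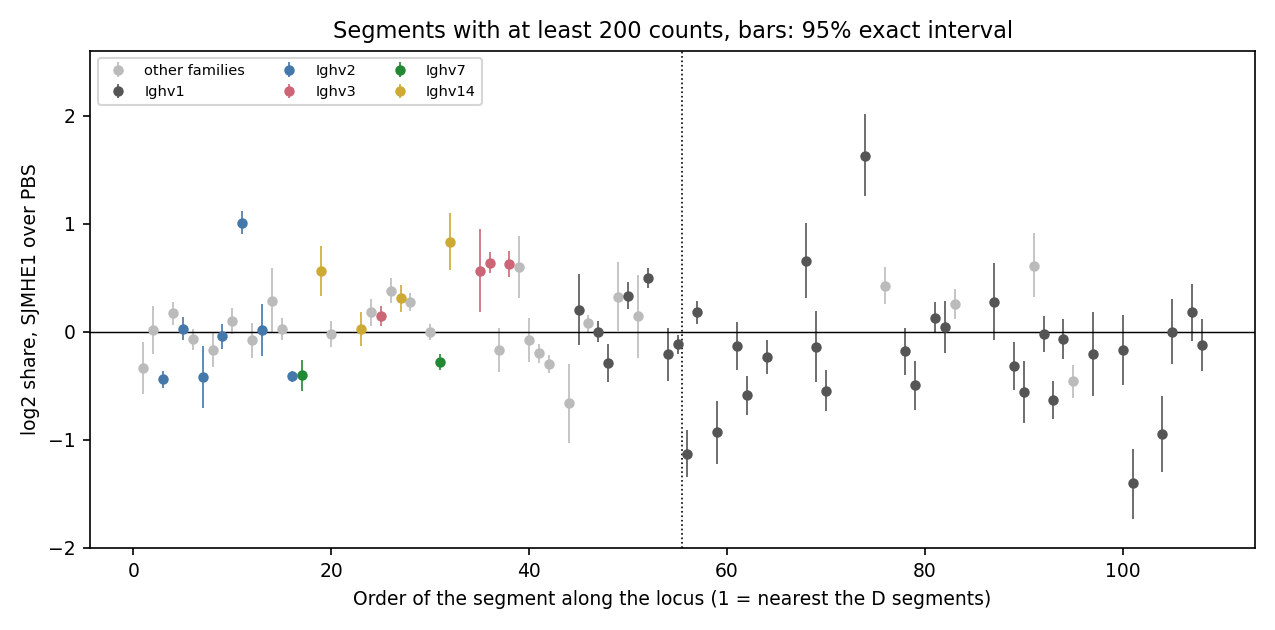
The log2 ratio of the share of Ighv counts, SJMHE1 to PBS, against the order of the segments along the locus, for members with at least 200 summed counts. Colours mark families, bars are exact 95% intervals for counting error, and the dotted line divides the 55 proximal from the 55 distal members. Ighv3 and Ighv14 segments lie above 0, and Ighv7 segments lie below 0.

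Sums over stretches of the locus also differed, while single members within them went both ways. In consecutive groups of 10 members, the fourth group from the D end, from Ighv7-3 to Ighv12-3, held 9.73% of counts in PBS and 11.2% in SJMHE1, a log2 share ratio of 0.21 (0.16 to 0.25). The seventh group, from Ighv1-21 to Ighv1-37, held 3.91% and 3.16%, a ratio of -0.31 (-0.39 to -0.23), and the group after it, from Ighv1-39 to Ighv8-6, held 2.22% and 2.69%, a ratio of 0.28 (0.18 to 0.38). At the ends, Ighv5-2, the functional segment nearest to the D segments and known as 81X, had 311 counts in PBS and 363 in SJMHE1. At the distal end Ighv1-82 had 213 and 278 counts, Ighv1-84 had 279 and 295 and Ighv1-85 had 66 and 128, while Ighv1-83 was not analysed here. The last member, Ighv1-86, had 58 and 45 counts, and the last group of 10, from Ighv1-74 to Ighv1-86, held 1.94% and 1.72% of counts, a ratio of -0.17 (-0.28 to -0.06). Ighv1-85 was at 3.40 FPKM in PBS and 6.26 in SJMHE1.

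Rows annotated as pseudogenes held nearly the same share in both libraries. The 15 such members had 6021 counts in PBS and 6987 in SJMHE1, or 9.08% (8.86 to 9.30) and 9.14% (8.94 to 9.35) of Ighv counts, a log2 share ratio of 0.01 (-0.04 to 0.06). Ighv1-14, Ighv3-2 and Ighv4-2 made up 77.2% of these counts in PBS and 78.9% in SJMHE1. Ighv4-2 had 888 counts in PBS and 1158 in SJMHE1. Whether these rows are functional segments in BALB/c mice was not tested. Ighv1-33, with 110 and 200 counts, was the pseudogene with the highest share ratio among those with at least 200 counts.

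Close relatives did not always differ alike. In 27 pairs each member was the other's most similar segment over 250 bases, and in 25 of them both members had counts in both libraries. The log2 share ratios had the same sign in 16 of the 25 pairs. This count takes signs of ratios of any size, some of them near 0. The same count over pairs that are not close relatives was not made. Ighv1-20 and Ighv1-37, which were 98.4% identical, were both lower, at -0.93 and -0.54, and Ighv11-1 and Ighv11-2, at 99.2%, were both higher, at 0.61 and 0.38. Ighv2-2 and Ighv2-4 were lower by nearly the same ratio, -0.44 and -0.42. In contrast Ighv1-18 and Ighv1-26, at 97.2%, had ratios of 0.18 (0.07 to 0.29) and -0.24 (-0.39 to -0.08). Every other pair with opposite signs held a ratio whose interval included 0. Ighv1-62-2 and Ighv1-71, identical over these 250 bases, had ratios of 0.28 (-0.08 to 0.63) and -0.21 (-0.60 to 0.19), and both intervals included 0.

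The D and J segments are joined to the V segments. Ighj1, the J segment nearest to the D segments, had 180 counts in PBS and 634 in SJMHE1, or 3.75% and 11.1% of the counts on the 4 J segments, with a log2 FPKM ratio of 1.74. Ighj2, Ighj3 and Ighj4 had log2 FPKM ratios of 0.15, -0.08 and 0.10. The 15 D segments together had 30 counts in PBS and 59 in SJMHE1. Of the 12 D and J segments compared, 5 were higher and 1 was lower, and all of these but Ighj1 had at most 24 counts in a library. Over all genes compared, 2.43% were higher and 3.57% lower. Among genes with 20 to under 200 counts these shares were 12.9% and 17.6%. Several D segments had fewer counts still, where the share over all genes was not computed. Ighd5-3, counted as higher by its FPKM, had 1 count in each library, and Ighd2-5 had 1 and 3.

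The constant segments set the antibody class. Ighm, the constant gene of IgM, was at 4116 FPKM in PBS and 4284 in SJMHE1, and Ighd, of IgD, at 734 and 793 FPKM. Together they made up 92.7% of heavy chain constant FPKM in PBS and 96.4% in SJMHE1. Among all genes with at least 200 counts, 1.79% were lower and 1.07% higher. Of the 8 constant genes, 3 were more than 2-fold lower and 0 higher. These were Ighg1, of IgG1, at 136 and 45.7 FPKM, Igha, of IgA, at 168 and 80.6 FPKM, and Ighe, of IgE, at 5.13 and 1.54 FPKM. Ighg2b, Ighg2c and Ighg3 had log2 FPKM ratios of -0.23, -0.86 and -0.13. Which V segments were joined to which class was not measured.

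Genes that act on the V segments or with the heavy chain were compared last. Of 12 genes of V(D)J recombination, 9 were compared and 0 were past 2-fold, with a median log2 FPKM ratio of -0.16. Rag1 and Rag2, the recombinase, were under 0.1 FPKM in both libraries, and Dntt, which adds bases at the joints, had 27 counts in PBS and 0 in SJMHE1. Among 11 compared genes of antibody secretion, 1 was lower, Tnfrsf17, the BCMA receptor of plasma cells, with 87 and 42 counts, and 0 were higher. Of all genes with 20 to under 200 counts, 17.6% were lower. Jchain, which joins IgM and IgA into polymers, was at 388 FPKM in PBS and 313 in SJMHE1. The 7 plasma cell markers, which include Jchain and Tnfrsf17, summed to 526 and 452 FPKM. Jchain made up most of both sums, so their difference mainly describes Jchain and not the whole list. Xbp1 was higher, at 25.5 and 33.8 FPKM. Mzb1, Derl3, Prdm1 and Sdc1 had log2 FPKM ratios of -0.08, -0.10, -0.08 and -0.45. The part of plasma cells in the Ighv values was not tested. Of 6 receptor partners and 4 light chain constant genes, 0 were past 2-fold, and Cr2 had the largest difference, at 136 and 218 FPKM. Of the surrogate light chain genes, Vpreb3 alone was compared, at 24.3 and 25.6 FPKM, while Igll1 and Vpreb2 had 0 counts in both libraries.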

How the data were processed

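RNA of B cells sorted from the spleen was sequenced after the samples of 3 mice per group were mixed. Raw, unnormalized read counts of each gene were deposited, together with FPKM. The deposited FPKM values scale the counts by length and library size and are rounded to 2 decimals. The submitters' processing notes name mm10, bcl2fastq 2.0, HISAT2, StringTie, DESeq2 and limma, without their roles. Strand use and the treatment of reads with several matches are not given in the sources used here. 2 columns with values of 1 library each carry a name found in no sample label and were left out, so the Control group was not compared.

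Members needed at least 20 summed counts. Shares are of the members' summed counts. Intervals are Clopper-Pearson at the 95% level, and that of the effective number comes from the multinomial variance of the entropy. A count of 0 was taken to allow 3 counts. Genes were compared by the log2 FPKM ratio with a threshold of 1, an FPKM of at least 1 in 1 library and above 0 in both. The genes named were the 10 with the highest mean share, the 6 highest and 6 lowest share ratios among members with at least 200 counts, segments with known roles, members next to the minimum and the listed genes. The values of some listed genes are not reported here. Other segments were named after their values were seen. Members and lists were chosen with earlier results of these data known. Segment families are the first number of the name. Sequences were aligned without gaps at the codon of the conserved cysteine, found in 105 members. The calculations were tested on simulated data. The software was Python 3.11.15, scipy 1.17.1, pandas 2.3.3, numpy 2.4.6 and, for plots, matplotlib 3.10.9.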

Additional observations from a re-analysis of the deposited data

How the results depend on the processing

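The ratios of the Ighv level, the proximal share and the pseudogene share kept their direction under each alternative tried. Each stayed inside the counting interval of its main value. The share of counts on a different segment, 10.1%, lay between 9.75% and 10.5% under the alternatives, and no interval was computed for it. The counts past 2-fold, 10 higher and 4 lower, became 4 and 2 with at least 1 FPKM in both libraries, 5 and 1 with a pseudocount of 1, and 2 and 2 with at least 200 counts, which leaves fewer segments. With no FPKM minimum, or with segments at 0 counted at 3 counts, an alternative added after the data were seen, they were 12 and 5. The effective number, 52.8 in PBS and 55.1 in SJMHE1, was 52.3 and 54.6 with shares of FPKM, 46.7 and 49.1 with functional segments, 56.6 and 56.8 without the most abundant segment, 49.1 and 50.3 with at least 200 counts, and 35.2 and 39.7 as the inverse Simpson index, and it was higher in SJMHE1 in each, although without the most abundant segment, Ighv2-9, the counting intervals overlapped. The share on a different family, 4.91%, was 3.29% without the most abundant segment of each family, where the Ighv3 ratio was 0.32 and the Ighv2 ratio -0.01. The log2 share ratios of the Ighv4, Ighv5 and Ighv8 families, whose intervals included 0, changed sign under 1 alternative each. Comparisons with the Control group were not run. With 1 library per group, no variation between animals is known, and segments under 200 counts carry wide intervals. No paired analysis was possible because only 1 library per group was sequenced.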
